A study of Mus musculus with 18 samples.

Results

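Chaperones of the endoplasmic reticulum (ER) were followed in mouse hippocampus and cerebral cortex that was fresh, snap-frozen or vitrified. The set was chosen by gene symbol, with earlier results of these data known: Hspa5, Hsp90b1, Pdia4, Pdia6, Calr, Canx, Dnajb11, Sdf2l1, Creld2 and Manf. All 10 were found in the values of both tissues, among 18389 genes listed for hippocampus and 18235 for cortex, and all 10 passed the filter on low counts. Each of the 6 groups had 3 libraries of poly(A) RNA, 18 in all, prepared with a strand-specific kit and sequenced on a DNBSEQ instrument, per the labels. Fresh tissue was homogenized with neither freezing nor cryoprotectant named for it. Snap-frozen tissue had been dropped straight into liquid nitrogen. Vitrified tissue was loaded with a solution of ethylene glycol (28 wt%), DMSO (22.3 wt%), sucrose (17.1 g) and phosphate-buffered saline (32.6 wt%) in steps of 25%, 50%, 75% and 100%, each lasting 5 min. It was then cooled in liquid nitrogen, stored for 4 days at -80 °C, thawed in a bath of 37 °C and freed of cryoprotectant stepwise. The cryoprotectants, the storage and the rewarming all come with the vitrified groups only, so their parts cannot be told apart. The labels name no strain, age or animal. P-values therefore rest on how far these libraries differ from each other, a spread that could be technical.

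The ER folds proteins bound for membranes and for secretion. Its most abundant helpers include Hspa5 (BiP), an Hsp70-type chaperone that also holds the stress sensors of the ER inactive, and Hsp90b1 (GRP94), the Hsp90 of this compartment. When unfolded proteins build up, the unfolded protein response (UPR), run by the sensors Ern1 (IRE1), Eif2ak3 (PERK) and Atf6, raises transcription of these chaperones through short promoter elements. In brain, neurons and glia all depend on this machinery for receptors, channels and secreted factors.

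The element tied most closely to these genes is the ER stress response element (ERSE), which Atf6 binds together with the CCAAT-binding factor NF-Y. It was searched as CCAAT, 9 bases of any kind and CCACG, on both strands of RefSeq promoters (GRCm38.p6), from 250 bases before to 50 bases after the gene start. These letters stood in 39 of 32851 promoters of that length (0.119%) and in 6 of the 9 chaperone promoters in the RefSeq table, those of Hspa5, Hsp90b1, Pdia6, Calr, Canx and Creld2. Hsp90b1 held them at 2 places. The shorter ERSE-II, which is ATTGG, 1 base of any kind and CCACG, was in 12 of all promoters (0.037%) and in that of Dnajb11. ERSE contains both CCAAT and CCACG, and ERSE-II contains CCAAT read on the other strand and CCACG, so these searches overlap. The letters CCAAT alone were in 37.4% of all promoters and in 9 of 9 here, and CCACG in 32.8% and again in 9 of 9. The core of the UPR element, TGACG followed by TGG (0.676% of all promoters) and the cyclic AMP element, TGACG followed by TCA (1.79%), were in 0 of the 9. Sdf2l1 held neither ERSE nor ERSE-II as spelled. The window of Pdia4 held neither as well, but it lies wholly upstream of the gene as GENCODE M21 places it. Its bases after the start, which hold its only CCACG, were found in no transcript. The window is kept in the counts of 9 above, but its lack of ERSE is not read as a result. A match of letters is a description of the sequence, not a mapped binding site.

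Shown are the 250 bases before the RefSeq start of Hspa5 (chr2:34771840-34772089, plus strand) and Hsp90b1 (chr10:86705445-86705694, minus strand). These genes encode the main chaperones of the set. Both stretches overlap the gene as GENCODE M21 places it. Each reads 5′ to 3′ along the gene's strand, and capitals mark ERSE; where an ERSE lies on the other strand it reads CGTGG first and ATTGG last.
Hspa5: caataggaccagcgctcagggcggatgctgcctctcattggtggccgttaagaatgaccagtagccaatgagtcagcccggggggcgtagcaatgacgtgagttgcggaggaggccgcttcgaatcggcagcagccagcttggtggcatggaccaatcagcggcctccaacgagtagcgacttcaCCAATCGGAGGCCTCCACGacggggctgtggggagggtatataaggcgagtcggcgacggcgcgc
Hsp90b1: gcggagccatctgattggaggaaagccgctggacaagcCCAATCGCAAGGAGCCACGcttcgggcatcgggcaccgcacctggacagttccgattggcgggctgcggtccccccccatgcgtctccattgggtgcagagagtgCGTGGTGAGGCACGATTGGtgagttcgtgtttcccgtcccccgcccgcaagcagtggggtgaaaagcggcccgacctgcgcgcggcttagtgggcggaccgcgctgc

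The remaining matches are shown as short stretches so that their spacing can be compared, with ERSE (ERSE-II for Dnajb11) in capitals. They come from chr12:17266476-17266524 (plus strand) for Pdia6, chr8:84847060-84847108 (minus strand) for Calr, chr11:50325785-50325833 (minus strand) for Canx, chr15:88819505-88819553 (plus strand) for Creld2 and chr16:22857843-22857871 (plus strand) for Dnajb11.
Pdia6: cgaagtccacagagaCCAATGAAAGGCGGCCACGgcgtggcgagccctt
Calr: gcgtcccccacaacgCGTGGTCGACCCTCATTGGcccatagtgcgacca
Canx: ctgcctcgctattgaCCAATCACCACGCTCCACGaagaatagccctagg
Creld2: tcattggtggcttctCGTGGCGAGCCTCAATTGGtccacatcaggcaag
Dnajb11: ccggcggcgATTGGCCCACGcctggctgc
GENCODE M21 starts Hspa5 at 34771970, Hsp90b1 at 86705509 and Pdia6 at 17266545, away from their RefSeq starts, so distances depend on the annotation. By GENCODE the ERSE of Hspa5 lies inside the gene. Counted from the RefSeq starts, the nearest ERSE was that of Hspa5, which ended 47 bases upstream. That of Calr ended 144 bases upstream, and the Dnajb11 match began at base 7 after the start.

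Library totals ran from 15725365 to 17480287 counts. Replicates differed by little more than sampling noise (chi-square per degree of freedom 1.23 to 1.66), except that replicate 3 of snap-frozen cortex stood at 4.35 and 3.99 against the others of its group. Prox1, which marks the dentate gyrus, was at 118 CPM (counts scaled to library size) in fresh hippocampus and 14.4 in fresh cortex. Snap-frozen hippocampus departed from fresh hippocampus in neuronal markers. Slc17a7, which loads glutamate into synaptic vesicles, was at 723 ± 5.36 CPM (SD, n = 3) against 1749 ± 7.17, and all 3 libraries of that group shared this. Chaperone values from snap-frozen hippocampus are therefore read beside its marker levels, and no library of that group lacks the departure.

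In fresh tissue the chaperones covered a wide range of levels per length, on the scale of CPM per kilobase of exon. Calr was the highest at 262 ± 4.32 in hippocampus and 243 ± 3.00 in cortex (mean ± SD, n = 3 libraries). It was followed in both tissues by Hsp90b1 (152 and 161), Hspa5 (115 and 117), Canx (98.1 and 95.4) and Pdia6 (80.6 and 72.6), each with libraries apart from the next. Pdia4, Manf and Dnajb11 lay close together, at 23.3 to 27.0. Manf and Dnajb11 overlapped in hippocampus, and Pdia4 and Manf in cortex. Sdf2l1 (15.1 to 16.9 in hippocampus, 14.0 in cortex) and Creld2 (12.3 and 12.8) were lowest, and overlapped in cortex.

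The levels of fresh hippocampus and fresh cortex were close. In a fit of edgeR's quasi-likelihood test to all 18 libraries, with p adjusted by the Benjamini-Hochberg method over 14827 genes and 0.05 as the threshold, 3 of 10 chaperones differed, against 56.4% of all genes. Hsp90b1 was lower in hippocampus (log2 fold change -0.099 ± 0.029 SE, adjusted p = 0.00367). Pdia6 (0.13 ± 0.031, adjusted p = 0.000353) and Calr (0.087 ± 0.023, adjusted p = 0.00119) were higher. Without fresh hippocampus replicate 2 the call of Hsp90b1 was lost (-0.074, adjusted p = 0.0547). Each tissue has its own deposited table, so tissue and table cannot be told apart.

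Vitrified tissue had less transcript of every chaperone in the set than fresh tissue, in hippocampus and in cortex. The summed level of the 10 genes went from 2263 ± 5.28 to 1589 ± 13.6 CPM in hippocampus, 70.2% of fresh, and from 2224 ± 24.9 to 1657 ± 23.6 CPM in cortex, 74.5% of fresh. All 10 fell in hippocampus, where 25.3% of the 14528 tested genes were called lower, and all 10 fell in cortex, where 17.3% of 14470 were. No vitrified library of either tissue overlapped a fresh one for any of the 10 (27.4% and 22.5% of all genes were lower without overlap). The median log2 fold change of the 10 was -0.47 in hippocampus and -0.42 in cortex, beside 0.005 and 0.03 over all genes. Because the set was chosen with earlier results of these data known, its comparison with all genes is a description only. In these bulk samples, fewer cells of a type and less RNA per cell cannot be told apart.

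**Figure D1:**
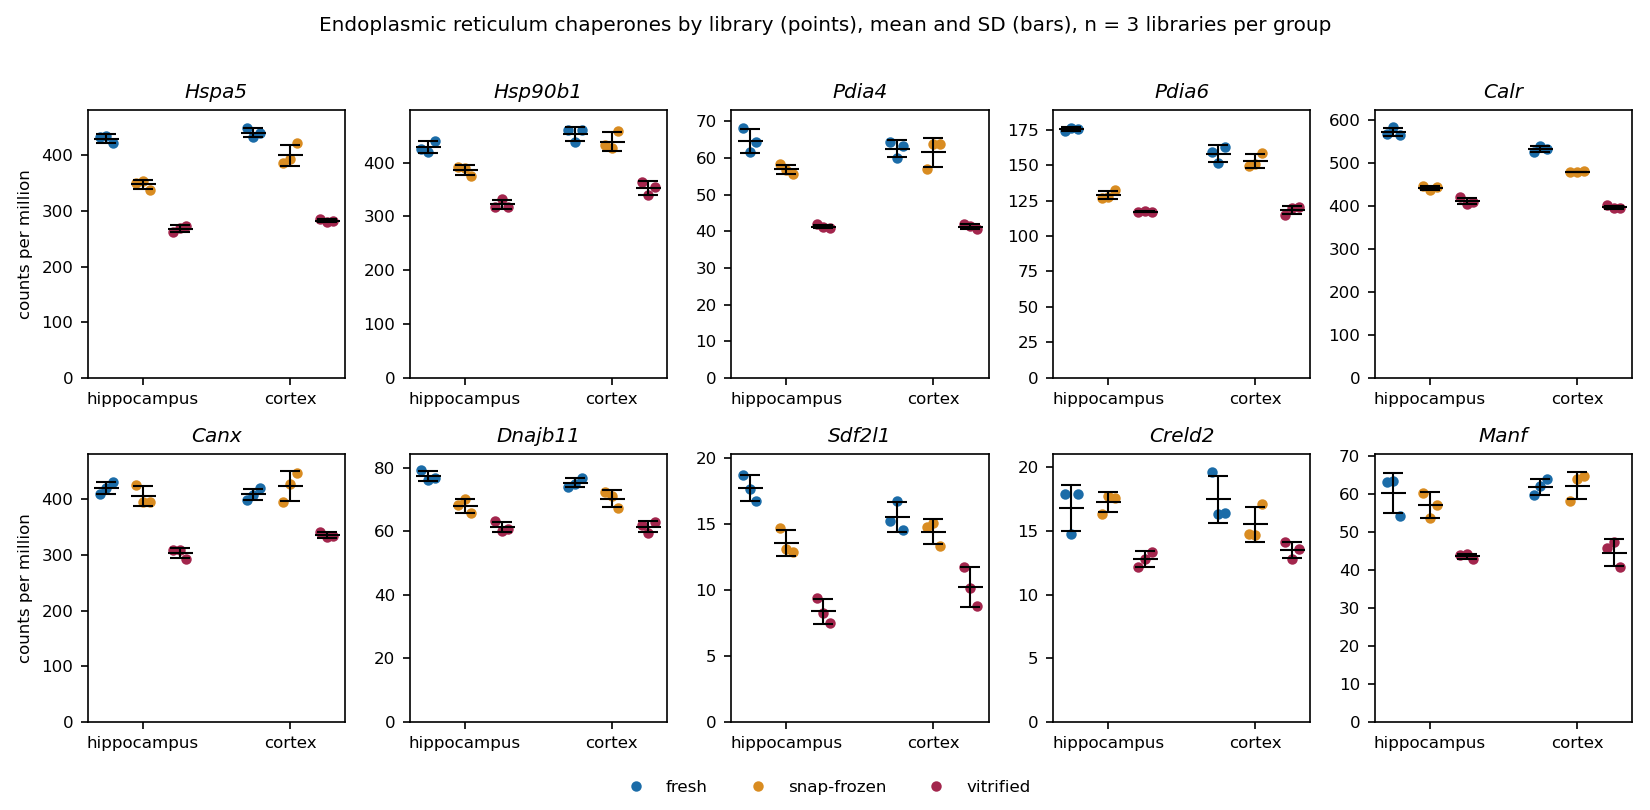
CPM (linear axis from 0) of each chaperone in every library, with fresh in blue, snap-frozen in orange and vitrified in red, hippocampus left and cortex right in each panel; bars give mean and SD, n = 3. Vitrified libraries lie below all fresh and snap-frozen libraries of the same tissue in all 10 panels, for example Hspa5 at 262 to 273 against 422 to 436 CPM in fresh hippocampus.

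Hspa5, which binds exposed stretches of unfolded proteins, fell far in both tissues. Its libraries stood at 434, 436 and 422 CPM in fresh and at 262, 270 and 273 CPM in vitrified hippocampus. In cortex they stood at 449, 433 and 439 CPM in fresh and at 286, 280 and 282 CPM in vitrified tissue. The states were far apart relative to their spread in both tissues. The log2 fold change was -0.68 ± 0.023 (SE, edgeR, adjusted p = 1.04e-28) in hippocampus and -0.64 ± 0.032 (adjusted p = 6.27e-16) in cortex, so vitrified tissue held 0.624 and 0.642 times the fresh level.

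Hsp90b1, which completes the folding of a smaller group of clients such as integrins and Toll-like receptors, fell less than Hspa5. Fresh hippocampus held 426, 420 and 441 CPM and vitrified hippocampus 318, 332 and 317 CPM (log2 -0.41 ± 0.023, adjusted p = 5.13e-20). Fresh cortex held 461, 439 and 461 CPM and vitrified cortex 364, 340 and 355 CPM (-0.36 ± 0.032, adjusted p = 2.7e-10). In both tissues the lowest fresh library was well above the highest vitrified one.

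The partners of Hspa5 marked the ends of the range in hippocampus. Sdf2l1, which works with Dnajb11 in keeping Hspa5 clients from aggregating, was low, at 18.8, 17.7 and 16.8 CPM in fresh and 9.40, 8.25 and 7.51 CPM in vitrified hippocampus. Its fall of -1.08 ± 0.088 (adjusted p = 1.73e-14) was the largest of the 10 in hippocampus. In cortex it went from 15.2, 16.8 and 14.6 CPM to 11.8, 10.2 and 8.78 CPM (-0.60 ± 0.093, adjusted p = 5.64e-06). Its counts ran from 119 to 306 a library, and its error was the widest of the set in these comparisons.

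Dnajb11 (ERdj3), a J-domain protein that delivers unfolded clients to Hspa5, changed least in hippocampus. Its fresh libraries held 79.3, 76.2 and 76.8 CPM and the vitrified ones 63.2, 60.1 and 60.8 CPM (-0.34 ± 0.039, adjusted p = 4.53e-10). In cortex 74.0, 75.1 and 76.8 CPM stood against 62.0, 59.6 and 63.0 CPM (-0.29 ± 0.043, adjusted p = 2.46e-06). The groups did not overlap in either tissue.

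The protein disulfide isomerases Pdia4 and Pdia6, which form and rearrange disulfide bonds and bind Hspa5 and its clients, fell in both tissues. Pdia4 went from 68.2, 61.6 and 64.4 CPM to 41.9, 41.1 and 41.0 CPM in hippocampus (-0.65 ± 0.044, adjusted p = 3.73e-17). It went from 64.3, 60.1 and 63.4 CPM to 41.9, 41.4 and 40.5 CPM in cortex (-0.60 ± 0.051, adjusted p = 7.57e-11). The vitrified values of Pdia4 were nearly the same in both tissues. Pdia6 went from 174, 177 and 175 CPM to 117, 118 and 117 CPM in hippocampus (-0.58 ± 0.029, adjusted p = 2.68e-22) and from 160, 151 and 163 CPM to 115, 120 and 120 CPM in cortex (-0.42 ± 0.037, adjusted p = 2.28e-10).

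Creld2, a stress-induced ER protein with disulfide isomerase activity, had the lowest mean per length in fresh tissue. Its libraries held 17.9, 14.7 and 17.9 CPM in fresh and 12.2, 12.8 and 13.4 CPM in vitrified hippocampus (-0.40 ± 0.081, adjusted p = 6.35e-05). In cortex 19.6, 16.4 and 16.4 CPM stood against 14.1, 12.8 and 13.6 CPM (-0.37 ± 0.085, adjusted p = 0.000721). The gap between the nearest libraries was narrow in both tissues.

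Calr and Canx are the lectin chaperones, soluble and membrane-bound, that hold newly made glycoproteins by their glucose-capped sugar chains and store or sense calcium. Calr went from 567, 583 and 565 CPM to 420, 404 and 409 CPM in hippocampus (-0.48 ± 0.021, adjusted p = 2.32e-24). It went from 525, 538 and 532 CPM to 401, 394 and 394 CPM in cortex (-0.42 ± 0.027, adjusted p = 1.33e-13). Vitrified libraries of Calr were thus about as far below fresh in both tissues. Canx went from 410, 420 and 432 CPM to 308, 309 and 293 CPM in hippocampus (-0.47 ± 0.026, adjusted p = 1.17e-20) and from 399, 408 and 419 CPM to 341, 332 and 335 CPM in cortex (-0.28 ± 0.035, adjusted p = 1.21e-07), its smaller change.

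Manf, an ER protein that binds Hspa5 and is secreted under stress with protective effects on dopamine neurons, fell in both tissues. Fresh hippocampus held 63.0, 63.2 and 54.1 CPM and vitrified hippocampus 43.8, 44.1 and 42.7 CPM (-0.47 ± 0.05, adjusted p = 7.77e-11). Fresh cortex held 59.6, 61.9 and 63.7 CPM and vitrified cortex 45.6, 47.2 and 40.6 CPM (-0.47 ± 0.054, adjusted p = 3.09e-08). Replicate 3 of fresh hippocampus lay below its group but above all vitrified libraries.

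The difference between tissues was tested directly, as cortex minus hippocampus, over all 18 libraries. For vitrification, 2 of 10 differed, both with the smaller fall in cortex (7.01% of all genes were called in that direction). They were Sdf2l1 (log2 0.44 ± 0.134, adjusted p = 0.0215) and Canx (0.15 ± 0.047, adjusted p = 0.027). These estimates rest on 1 scaling of all libraries together and are not exact differences of the values above. The call of Canx was lost without fresh hippocampus replicate 3 (0.14, adjusted p = 0.0646), vitrified hippocampus replicate 3 (0.14, adjusted p = 0.0745), fresh cortex replicate 1 (0.14, adjusted p = 0.0636) or vitrified cortex replicate 1 (0.15, adjusted p = 0.052). That of Sdf2l1 was lost in DESeq2 (0.44, adjusted p = 0.0607) and without fresh hippocampus replicate 1 (0.41, adjusted p = 0.0564), vitrified hippocampus replicate 3 (0.38, adjusted p = 0.086), fresh cortex replicate 3 (0.40, adjusted p = 0.0558) or vitrified cortex replicate 1 (0.34, adjusted p = 0.127). Of the other 8, Hspa5 had the interval -0.076 to 0.082 around 0.003 and Calr -0.049 to 0.08 around 0.015. Pdia6 was at 0.12 (adjusted p = 0.0682).

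Snap-freezing went with a smaller fall that differed between the tissues. In snap-frozen hippocampus the summed level was 1922 ± 33.1 CPM, 84.9% of fresh, and 7 of 10 chaperones fell, where 30.7% of all genes were called lower. In snap-frozen cortex it was 2119 ± 67.9 CPM, 95.2% of fresh, and 2 of 10 fell, where 17.6% of all genes were called lower, a share close to that of the set. Both states were compared with the same fresh libraries.

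**Figure D2:**
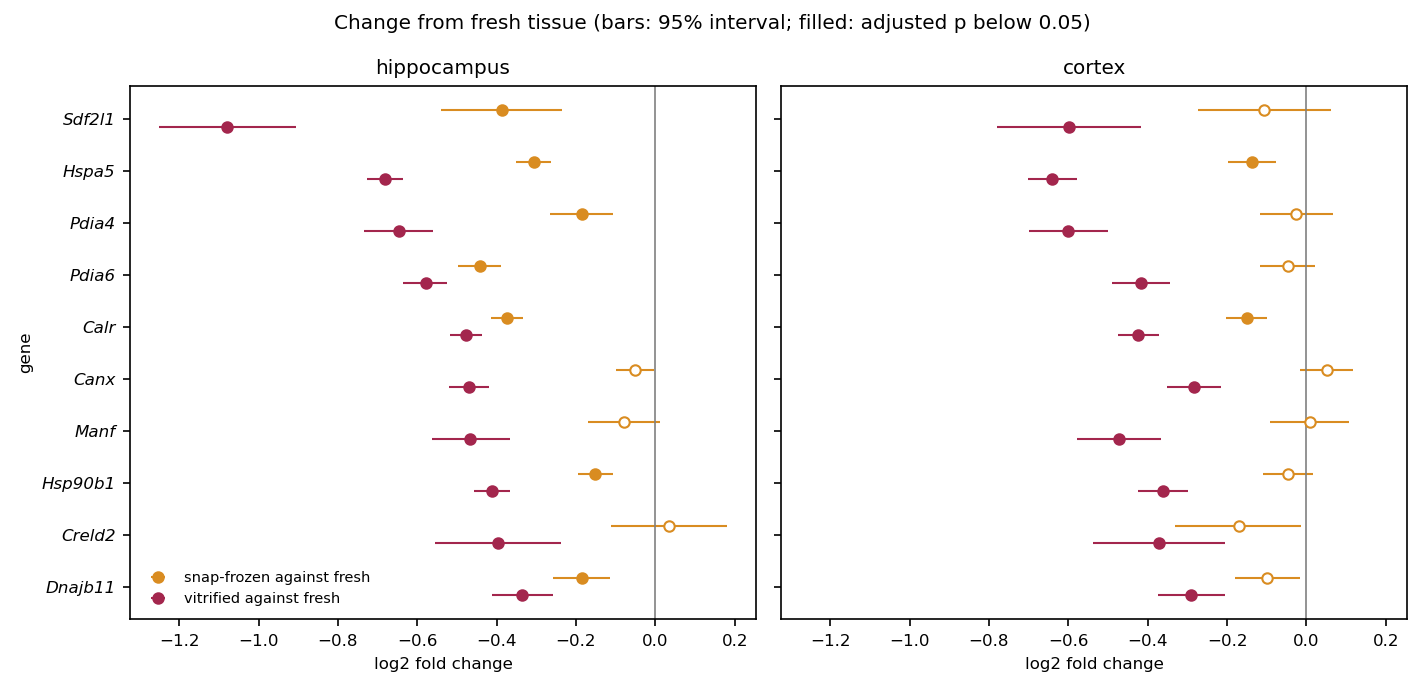
Log2 fold change from fresh tissue (horizontal axis) of each chaperone in snap-frozen (orange) and vitrified (red) tissue, hippocampus left and cortex right; bars are 95% intervals and filled points passed an adjusted p of 0.05. All 20 red points are filled and lie between -1.08 and -0.28, whereas 7 orange points are filled in hippocampus and 2 in cortex.

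The largest falls in snap-frozen hippocampus were those of Pdia6 and Calr. Pdia6 stood at 127, 128 and 132 CPM against 174 to 177 in fresh hippocampus (-0.44 ± 0.028, adjusted p = 4.58e-19). Calr stood at 445, 436 and 443 CPM against 565 to 583 (-0.37 ± 0.02, adjusted p = 3.49e-21). Both lay nearer to the vitrified than to the fresh libraries.

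Hspa5 held an intermediate place, at 351, 354 and 338 CPM in snap-frozen hippocampus (-0.31 ± 0.022 against fresh, adjusted p = 8.31e-17). Sdf2l1 (-0.39 ± 0.078), Pdia4 (-0.19 ± 0.041), Dnajb11 (-0.19 ± 0.037) and Hsp90b1 (-0.15 ± 0.023) also fell. All 7 that fell did so without overlap with fresh libraries, as did 32.2% of all genes. Canx (-0.052, adjusted p = 0.0636), Manf (-0.079, adjusted p = 0.142) and Creld2 (0.035, adjusted p = 0.705) did not pass the test, and their libraries overlapped those of fresh hippocampus. The intervals of these 3 were -0.1 to -0.004, -0.17 to 0.013 and -0.112 to 0.182. Canx passed as lower with no filter on low counts (-0.059, adjusted p = 0.015), without fresh replicate 1 (-0.073, adjusted p = 0.0189) or snap-frozen replicate 1 (-0.089, adjusted p = 0.0018), and Manf without fresh replicate 3 (-0.15, adjusted p = 0.00421) or snap-frozen replicate 1 (-0.12, adjusted p = 0.0405).

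Scaling mattered more here than elsewhere. With library totals in place of TMM factors, the median of all genes in snap-frozen against fresh hippocampus moved by 0.12 on the log2 scale, and 70.3% of called genes were higher, against 50.7%. On that scale Hsp90b1 (-0.032, adjusted p = 0.207), Pdia4 (-0.066, adjusted p = 0.147) and Dnajb11 (-0.066, adjusted p = 0.112) were not called, and Canx turned to 0.067 (adjusted p = 0.0138). Relative to the shifted median these 3 remained lower. For vitrified against fresh hippocampus the share of higher calls moved from 48.5% to 62.9%, and all 10 chaperones were still called lower.

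In snap-frozen cortex the genes that fell were Hspa5 and Calr. Hspa5 stood at 386, 394 and 422 CPM against 433 to 449 in fresh cortex (-0.14 ± 0.031, adjusted p = 0.00105). Calr stood at 479, 479 and 480 CPM against 525 to 538 (-0.15 ± 0.026, adjusted p = 5.87e-05). Dnajb11 was the third without overlap with fresh (22.6% of all genes were lower without overlap) but missed the threshold (-0.099, adjusted p = 0.066); it passed with RLE factors (-0.11, adjusted p = 0.0348). The other 7 had values from -0.17 to 0.051, such as Manf at 0.009 (interval -0.091 to 0.108) and Canx at 0.051 (-0.016 to 0.118). Without replicate 3, the library that stood apart, 4 of 10 were called lower: Hsp90b1 (-0.078, adjusted p = 0.0129) and Creld2 (-0.25, adjusted p = 0.0211) joined. Without snap-frozen replicate 1, also 4 were called, with Dnajb11 lower (-0.12, adjusted p = 0.0461) and Canx higher (0.099, adjusted p = 0.0172). In the same comparison, 10 of 12 astrocyte markers fell and 1 rose, the sum standing at 85.0% to 89.5% of fresh. All 10 choroid plexus markers fell, from 324 to 419 CPM in sum to 135 to 143 CPM, and 6 of 10 meningeal markers fell and 1 rose, from 274 to 290 to 214 to 231 CPM. Endothelial and microglial markers each rose in 3 of 10 and fell in 0. Of 8 markers each, excitatory neuron markers rose in 4 and fell in 1, and inhibitory ones rose in 5 and fell in 2. Oligodendrocyte markers rose in 2 and fell in 2 of 8. The part of these markers in the chaperone values was not tested.

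The effect of snap-freezing differed between the tissues for 4 of 10 chaperones, in each case with the higher value in cortex (26.6% of all genes were called in that direction). They were Pdia6 (0.38 ± 0.044, adjusted p = 8.96e-10), Calr (0.21 ± 0.033, adjusted p = 5.5e-07), Hspa5 (0.16 ± 0.039, adjusted p = 0.000775) and Pdia4 (0.15 ± 0.063, adjusted p = 0.0419). The count was 7 without snap-frozen hippocampus replicate 2. In snap-frozen against fresh cortex itself, Pdia6 (-0.047, adjusted p = 0.331) and Pdia4 (-0.025, adjusted p = 0.725) were not called. Creld2 lay the other way (-0.22, adjusted p = 0.101), with the lower value in cortex. It was called in that direction on leaving out any one of 5 libraries: fresh hippocampus replicates 1 or 3, fresh cortex replicates 2 or 3, or snap-frozen cortex replicate 3 (-0.31, adjusted p = 0.0221, for the last). On library totals, which moved the median of all genes in this contrast by -0.11, Creld2 was also called (-0.32, adjusted p = 0.0156) and Hspa5 was not (0.052, adjusted p = 0.27). Pdia4 was called least firmly: its call was lost in DESeq2 (adjusted p = 0.0944), with other filters, on library totals, and on leaving out any one of 8 libraries: fresh hippocampus replicates 1 and 3, snap-frozen hippocampus replicate 1, every fresh cortex library, and snap-frozen cortex replicates 2 and 3. Over these 8 the adjusted p ran from 0.0574 to 0.253.

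Vitrified tissue lay below snap-frozen tissue as well. All 10 chaperones were lower in hippocampus (34.0% of all genes), with a median of -0.38, from -0.69 (Sdf2l1) to -0.10 (Calr). In cortex 9 were lower (24.2% of all genes), with a median of -0.35; Creld2 had the value -0.20 (adjusted p = 0.0542). Every vitrified library lay below every fresh and snap-frozen library of its tissue for all 10 genes; against snap-frozen libraries, 35.0% of all genes in hippocampus and 26.7% in cortex were lower without overlap. The 3 states were separate, in the order fresh, snap-frozen, vitrified, for 7 genes in hippocampus (Hspa5, Hsp90b1, Pdia4, Pdia6, Calr, Dnajb11 and Sdf2l1) and 3 in cortex (Hspa5, Calr and Dnajb11). Over all genes, 2.34% in hippocampus and 3.81% in cortex were separate in this order. Snap-frozen hippocampus had excitatory neuron markers at 53.6% to 54.5% of fresh and oligodendrocyte markers at 154% to 155%. The part of such marker differences in these comparisons was not tested.

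The chaperones correlated across libraries, with the differences between states left in. Genes lower in every vitrified library correlate through that difference, so r adds no separate support to the falls above. After each gene was centred within its tissue, Pearson's r of log2 CPM over the 18 libraries, which share the 6 groups, had a median of 0.898 over the 45 pairs, from 0.648 (Calr with Creld2) to 0.983 (Hspa5 with Hsp90b1). Ranked by r with Hspa5 among 14826 genes, Hsp90b1 was number 2, Pdia4 number 8, Pdia6 number 45, Calr number 51 and Dnajb11 number 53. Manf was number 108, Sdf2l1 number 126 and Canx number 141, behind many genes outside the set. Creld2, with few counts, was number 568 (r = 0.809).

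Outside the set, Pdia3 (ERp57), the disulfide isomerase that works on glycoproteins held by Calr and Canx, followed Hspa5 most closely, with r = 0.986. It stood at 251, 248 and 247 CPM in fresh and 191, 190 and 193 CPM in vitrified hippocampus, and at 254, 247 and 251 CPM against 193, 199 and 195 CPM in cortex. Next came Fam107a (0.983), the brain glycogen phosphorylase Pygb (0.982), Mmd2 (0.981), Setd7 (0.979), Tmcc2 (0.978), Ezr (0.972) and Scrg1 (0.972). Several of them fell further than Hspa5 in vitrified hippocampus, for example Ezr, which links membranes to actin, at -1.44.

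The fall did not extend evenly to the rest of the ER machinery. Over all genes, 23.8% were called higher in vitrified hippocampus and 23.2% in cortex. Of 12 co-chaperones and ER relatives of Hspa5, 8 fell and 1 rose in vitrified hippocampus (median -0.17), and 5 fell and 1 rose in cortex (-0.077). Dnajc3 (p58IPK), a J-domain co-chaperone whose promoter also held ERSE, fell by 0.61 ± 0.04 and 0.54 ± 0.047 on the log2 scale. Hyou1, a nucleotide exchange factor of Hspa5, was at -0.37 ± 0.029 and -0.23 ± 0.037, and the translocon J-protein Sec63 at -0.22 and -0.11, all past the threshold. Sdf2, the constitutive relative of Sdf2l1, was at 0.095 (adjusted p = 0.0852) and -0.055 (adjusted p = 0.401).

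**Figure D3:**
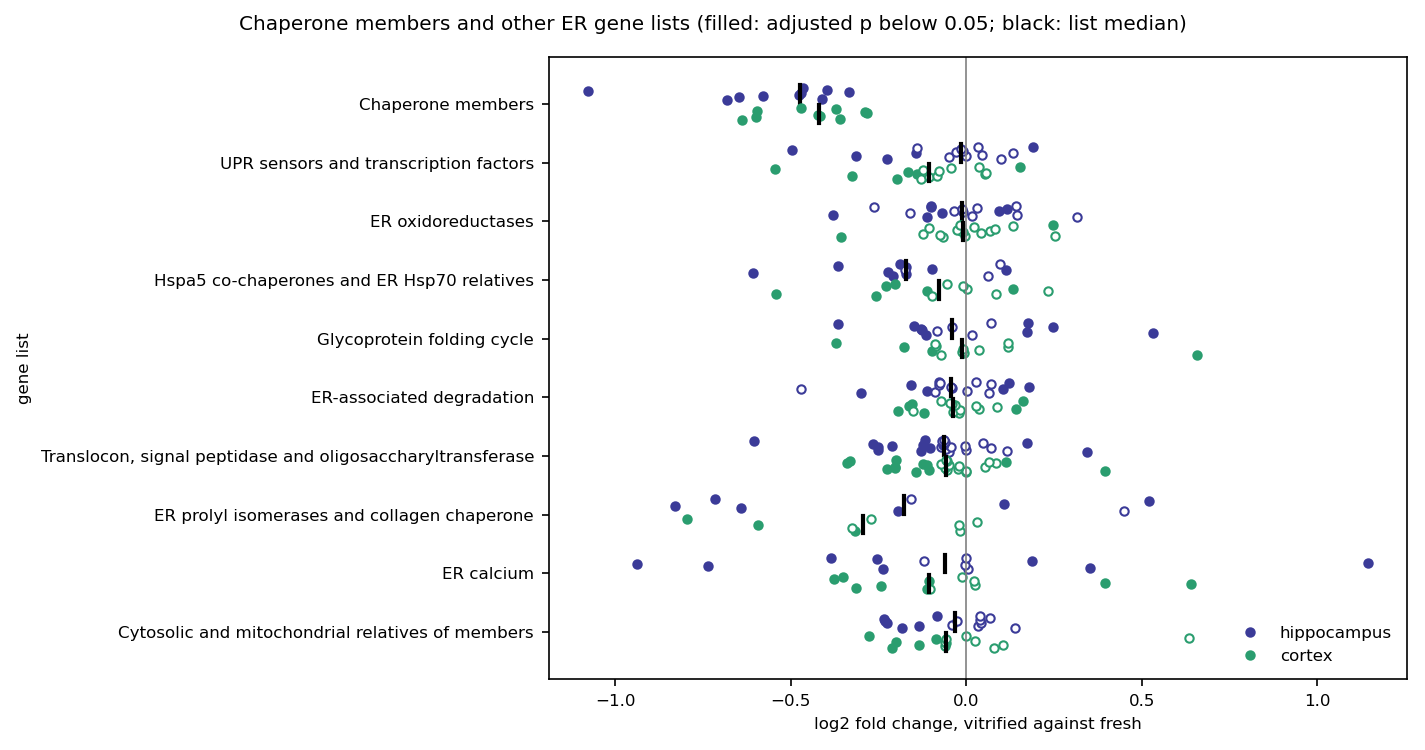
Log2 fold change of vitrified against fresh tissue (horizontal axis) for each gene of the chaperone set and of 9 other gene lists, hippocampus in blue and cortex in green; filled points passed an adjusted p of 0.05 and black bars are list medians. The chaperone medians (-0.47 and -0.42) lie left of the medians of the other lists, which run from -0.29 to -0.01. The set and the lists were chosen with earlier results of these data known.

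Most other oxidoreductases did not pass the test in vitrified tissue. Of 17, 5 fell and 2 rose in vitrified hippocampus (median -0.014), and 1 fell and 1 rose in cortex (-0.01). Pdia3 fell in both tissues (-0.38 ± 0.026 and -0.36 ± 0.031). P4hb, the founding disulfide isomerase, was lower in hippocampus (-0.11 ± 0.032, adjusted p = 0.0033) and at -0.066 (adjusted p = 0.139) in cortex. Qsox1, a sulfhydryl oxidase, rose in cortex (0.25 ± 0.062, adjusted p = 0.00178).

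Of the 15 sensors and transcription factors of the UPR, 4 fell and 1 rose in vitrified hippocampus (median -0.016), and 5 fell and 1 rose in cortex (-0.11). Xbp1, the transcription factor whose mRNA Ern1 splices, fell in both tissues, from 92.4, 88.8 and 87.8 CPM to 76.4, 68.6 and 71.0 CPM in hippocampus (-0.32 ± 0.039, adjusted p = 2.07e-09). In cortex it went from 98.8, 104 and 97.7 CPM to 80.7, 79.9 and 79.1 CPM (-0.33 ± 0.04, adjusted p = 1.1e-07). Spliced and unspliced Xbp1 are not separated in gene counts. Atf6 was at -0.051 (adjusted p = 0.264) in hippocampus and fell in cortex (-0.20, adjusted p = 0.000262), while Eif2ak3 fell in hippocampus (-0.23, adjusted p = 0.000611) and was at -0.11 (adjusted p = 0.167) in cortex. Ern1 passed in neither (0.099, adjusted p = 0.553, and -0.13, adjusted p = 0.476). Atf4, the effector downstream of Eif2ak3, fell by 0.15 and 0.14 on the log2 scale.

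In the glycoprotein folding cycle, 5 of 13 genes fell and 4 rose in vitrified hippocampus (median -0.041), and 3 fell and 1 rose in cortex (-0.014). Lman2, a cargo lectin, fell (-0.37 and -0.37), and Uggt2, a relative of the folding sensor that adds glucose back to glycoproteins, rose (0.53 ± 0.054 and 0.66 ± 0.073). Of 17 genes of ER-associated degradation, which removes misfolded proteins, 4 fell and 3 rose (-0.043) in hippocampus and 4 fell and 2 rose (-0.038) in cortex. Sel1l, the scaffold of the degradation ligase, fell by 0.30 and 0.12 on the log2 scale.

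Protein entry showed changes both ways. Of 25 genes of the translocon, signal peptidase and oligosaccharyltransferase, 9 fell and 2 rose in vitrified hippocampus (median -0.064), and 10 fell and 2 rose in cortex (-0.058). Stt3b, a catalytic subunit of the oligosaccharyltransferase, fell (-0.27 and -0.34), and the translocon subunit Sec61a2 rose (0.34 and 0.40). Of 8 tested prolyl isomerases and the collagen chaperone, 4 fell and 2 rose (-0.18) in hippocampus and 3 fell and 0 rose (-0.29) in cortex. Serpinh1 (Hsp47), the collagen chaperone, fell by 0.72 and 0.80 on the log2 scale. Of 12 ER calcium genes, 5 fell and 3 rose (-0.062), and in cortex 6 fell and 2 rose (-0.11). Itpr1, a calcium release channel rich in hippocampal neurons, fell by 0.74 and 0.32.

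Relatives of the set, mostly of the cytosol and mitochondria, were all lower where they passed the test in vitrified tissue. Of 14, 6 fell and 0 rose in hippocampus (median -0.033), and 5 fell and 0 rose in cortex (-0.06). Over all genes, 25.3% and 17.3% were called lower, with medians of 0.005 and 0.03. The medians of the set were -0.47 and -0.42. The cytosolic Hsp70 Hspa8 fell by 0.18 and 0.21 on the log2 scale, and mitochondrial Hspa9 by 0.14 and 0.14. Hsp90ab1, the cytosolic relative of Hsp90b1, was at -0.026 (adjusted p = 0.228) and 0.024 (adjusted p = 0.517), and mitochondrial Trap1 at 0.039 (adjusted p = 0.477) and -0.057 (adjusted p = 0.336). Creld1, the relative of Creld2, was at 0.038 and -0.002, and Cdnf, the relative of Manf, at 0.068 and 0.64 with about 1 CPM; neither passed in either tissue. Stress-inducible Hspa1a, which has a near-identical copy, was at 0.14 (adjusted p = 0.0791) and 0.078 (adjusted p = 0.464).

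In snap-frozen tissue 31.5% of all genes were called higher and 30.7% lower in hippocampus, and 16.4% higher and 17.6% lower in cortex. Of 17 oxidoreductases, 8 rose and 1 fell in hippocampus (median 0.067), and 8 rose and 2 fell in cortex (0.11). P4hb was higher in snap-frozen hippocampus (0.15 ± 0.031, adjusted p = 3.48e-05), where Pdia6 and Calr fell. Translocon and oligosaccharyltransferase genes fell in 10 and rose in 4 of 25 in hippocampus (-0.032), and fell in 2 and rose in 12 in cortex (0.093). Of the 14 relatives of the set, mostly cytosolic or mitochondrial, 9 fell and 1 rose in snap-frozen hippocampus (-0.18). Hsp90ab1 was at -0.36 and Hspa1a at -0.62 there. In snap-frozen cortex 2 of the 14 fell and 2 rose (0.01). Xbp1 was at 0.002 (adjusted p = 0.958) and 0.043 (adjusted p = 0.409).

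Genes that hold ERSE letters but lie outside the set did not move as one. This group was taken from the promoter search after the values of the set were known. Of 31 such genes, 13 were tested in hippocampus. In vitrified tissue 3 of them fell and 5 rose (median 0.072), where 25.3% of all genes were called lower and 23.8% higher. The 6 chaperones with ERSE had a median of -0.47. In cortex 14 were tested, of which 2 fell and 3 rose (0.028), where 17.3% of all genes were called lower and 23.2% higher. Pan2, for example, a deadenylase subunit, rose by 0.44 and 0.54, while Dnajc3 fell, at -0.61 and -0.54. Calr4 was at -1.15 and -0.87, past the threshold in hippocampus only. Within the set, Sdf2l1, with neither element as spelled, was at -1.08 in hippocampus, beyond all 6 chaperones with ERSE. In cortex it was at -0.60, short of Hspa5 at -0.64. The part of ERSE in these values was not tested.

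Markers of several cell types moved with the states. All 12 astrocyte markers fell in vitrified tissue, their summed level going from 6625 to 6685 CPM in fresh to 2464 to 2474 CPM in vitrified hippocampus, and from 6802 to 6883 to 3800 to 3907 CPM in cortex. Microglial markers went from 505 to 512 to 320 to 330 CPM in hippocampus (8 of 10 fell) and from 503 to 516 to 469 to 477 CPM in cortex (6 of 10). Endothelial markers rose, 10 of 10 in hippocampus (213 to 218 against 373 to 386 CPM) and 8 of 10 in cortex (355 to 369 against 488 to 499 CPM). In cortex all 10 choroid plexus markers fell, from 324 to 419 to 9.99 to 11.2 CPM, as did all 10 meningeal markers, from 274 to 290 to 158 to 163 CPM. In hippocampus 4 of 9 tested choroid plexus markers fell and 1 rose, while 1 of 10 meningeal markers fell and 4 rose. Of ependymal markers 8 of 8 fell in hippocampus and 4 of 7 tested in cortex. Oligodendrocyte markers fell in 6 and rose in 2 of 8 in hippocampus, and fell in 1 and rose in 4 in cortex. Inhibitory neuron markers fell in 4 and rose in 0 of 8 in hippocampus, and fell in 2 and rose in 2 in cortex. No marker of any list was at 0 in a whole group. The part of these markers in the fall of the chaperones was not tested.

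**Figure D4:**
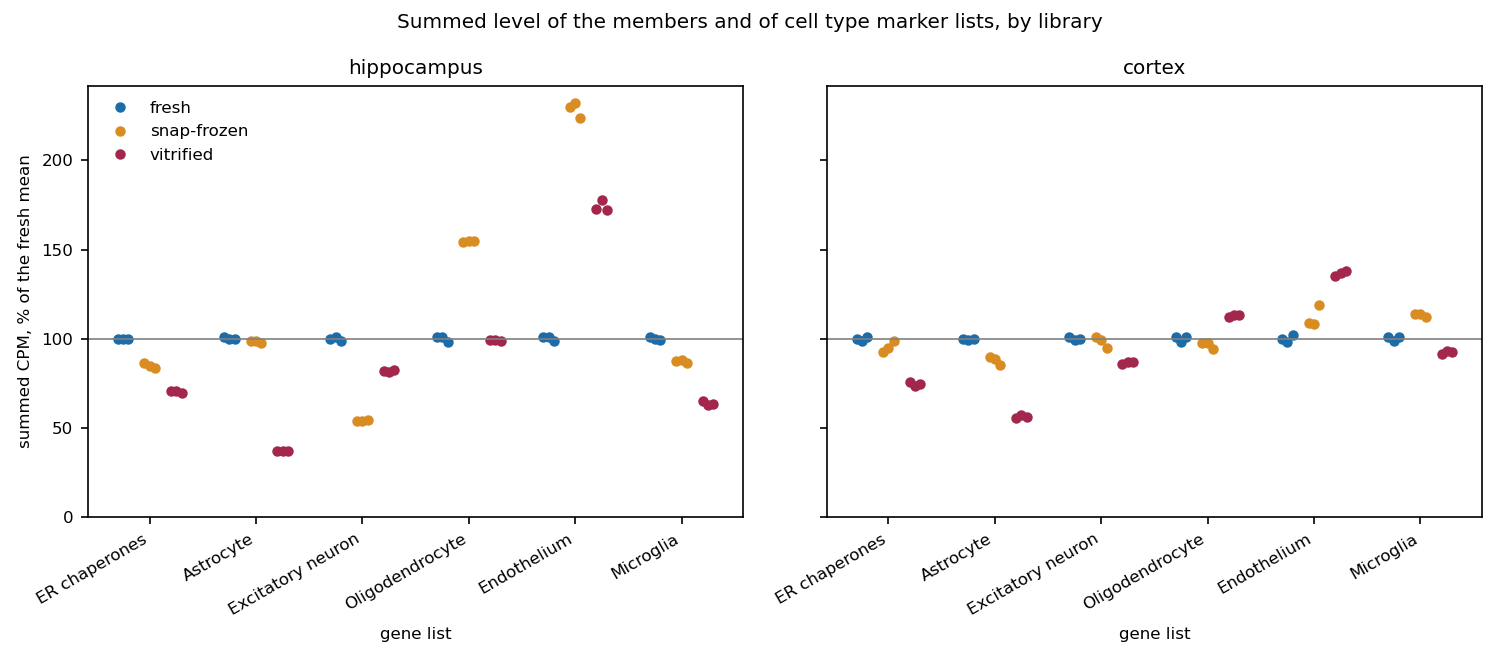
Summed CPM of the 10 chaperones and of 5 cell type marker lists in every library, as a percentage of the fresh mean (vertical axis from 0), hippocampus left and cortex right. In snap-frozen hippocampus the chaperones lie at 83.6% to 86.5% with astrocyte markers at 97.7% to 98.7%; in vitrified hippocampus the chaperones lie at 69.5% to 70.7% with astrocyte markers at 37.1% to 37.2%.

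Snap-frozen hippocampus gave the fall of 7 chaperones beside an astrocyte sum near the fresh one, at 6493 to 6558 CPM, with 9 of the 12 markers higher and 3 lower. Its excitatory neuron markers were at 4226 to 4290 CPM against 7779 to 7942 in fresh tissue (7 of 8 fell) and its oligodendrocyte markers at 9318 to 9400 against 5948 to 6107 (8 of 8 rose). Inhibitory neuron markers rose in 4 and fell in 4 of 8, with the sum at 1118 to 1141 against 827 to 839 CPM. Endothelial markers stood at 224% to 232% of fresh there (10 of 10 rose) and microglial markers at 86.5% to 88.0% (7 of 10 fell). The part of these markers in the fall there was not tested. In vitrified tissue excitatory neuron markers summed to 81.2% to 82.2% of fresh in hippocampus and 85.7% to 86.9% in cortex, although 1 of 8 fell and 2 rose in hippocampus (median log2 fold change 0.048) and 1 fell and 3 rose in cortex (-0.004). Slc17a7 stood at 1747 ± 7.33 against 1749 ± 7.17 CPM in hippocampus and 1453 ± 12.1 against 1459 ± 13.2 CPM in cortex.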

How the data were processed

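The authors deposited 1 table of expected counts for each tissue; all values of the 10 chaperones are whole. The submitters' processing notes name HISAT2 2.0.4 and GRCm38.p6. Which counter and strand setting made the counts is not given in the sources used here. Values were rounded and tested with edgeR 4.0.16 (quasi-likelihood, TMM, default filter by group, R 4.3.3) over the 9 libraries of a tissue, or all 18 for differences between tissues, with Benjamini-Hochberg adjustment over all genes and a threshold of 0.05. SEs come from the F statistic; intervals are at 95%. CPM uses TMM-scaled library sizes; lengths are GENCODE M21 exon unions. The common coefficient of variation was 1.69% in hippocampus and 2.71% in cortex. On simulated data, 90% of changes of 0.5 (log2) were recovered in vitrified against fresh hippocampus and 90% in cortex, and 74% for the tissue difference in vitrification. The simulated data had far fewer changed genes, as many higher as lower, and the same spread for every gene, so recovery here may differ. All chaperones, and from each list the changed genes with the smallest p in vitrified tissue, plus fixed relatives, are named. The members and lists were chosen with earlier results of these data known. Alternatives were RLE factors, library totals, no filter, a filter of 1 CPM in 3 libraries, DESeq2 1.42.0, limma-voom 3.58.1, a replicate block, only the libraries compared, and each library left out.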

Additional observations from a re-analysis of the deposited data

Results flagged for a closer look

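For 6 results the change from fresh tissue differed between cortex and hippocampus by a test of that difference (edgeR, interaction over all 18 libraries, given as cortex minus hippocampus on the log2 scale). After vitrification the fall was smaller in cortex for Canx (0.15) and Sdf2l1 (0.44). After snap-freezing the value was higher in cortex for Hspa5 (0.16), Pdia4 (0.15), Pdia6 (0.38) and Calr (0.21). Of these, Pdia4 and Pdia6 were not called lower in snap-frozen cortex itself. The calls of Canx, Sdf2l1 and Pdia4 were lost on leaving out certain single libraries, and those of Sdf2l1 and Pdia4 also in DESeq2. Snap-frozen hippocampus also differed from fresh hippocampus in its neuronal and oligodendrocyte markers, whose part was not tested.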

How the results depend on the processing

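The 10 falls in vitrified against fresh tissue held in both tissues under every alternative run, with 10 of 10 called on leaving out any library. On leaving out single libraries, the number of chaperones called ranged from 7 to 9 for snap-frozen against fresh hippocampus, 2 to 4 in cortex, 9 to 10 for vitrified against snap-frozen cortex, 2 to 4 between fresh tissues, 0 to 2 for the tissue difference in vitrification and 3 to 7 for that in snap-freezing. The count of 0 (edgeR, without vitrified hippocampus replicate 3) had 3 at an unadjusted p below 0.05. DESeq2 called 1 for the tissue difference in vitrification. With only the libraries compared, 7 were called for the tissue difference in snap-freezing and 5 between fresh tissues. Canx in snap-frozen hippocampus turned from -0.052 to 0.067 on library totals, whose own shift accounts for the change of sign. No pairing of samples by replicate number was seen. Most replicates differed by little more than sampling noise, so a pairing could go undetected. Correlations of same-numbered deviations ran from -0.039 to 0.062 within a tissue, with 0 of 18 over 0.1. Across tissues they ran from -0.066 to 0.119, with 1 of 27 over 0.1. Within a tissue, 5 of 18 best matches were of the same number. With a replicate block, 5 chaperones were called for the tissue difference in snap-freezing, and Creld2 was called in vitrified against snap-frozen cortex (-0.20, adjusted p = 0.0484), as it was with RLE factors (adjusted p = 0.0474), with no filter (0.0243) and with only the libraries compared (0.0475). Sdf2l1, at 119 to 306 counts a library, had wide errors, which limits what small differences can be seen there.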
